A study of Mus musculus with 10 samples.

Results

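Genes that drive or mark cell division were followed through 10 libraries of brainstem microglia, the resident macrophages of the brain. The set holds 35 genes, chosen by symbol from a list of cell cycle and proliferation genes, and all 35 were found among the 37447 genes of the deposited expression table. Microglia of mice aged 6 weeks were isolated in 3 ways. The LCM_GFP group (n = 4) holds GFP expressing cells cut from lightly fixed frozen sections by laser capture microdissection, with 3 libraries labelled female and 1 male (library 2). The FACS_GFP group (n = 3) holds GFP expressing cells sorted from dissociated, Percoll enriched tissue, with 2 libraries labelled female and 1 male (library 2). The FACS_WT group (n = 3) holds wild-type C57BL/6 cells sorted in the same manner, all labelled male. The labels name neither the strain nor the promoter behind GFP, and they call the libraries biological replicates. RNA came from the captured cells by acid phenol after proteinase K and from the sorted cells by TRIzol, so capture, fixation and extraction cannot be told apart. Levels are FPKM, fragments per kilobase of transcript relative to the mapped fragments of the library.

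A dividing cell passes from G1 through DNA synthesis (S phase) and G2 to mitosis. D-type cyclins with Cdk4 phosphorylate the retinoblastoma protein, which frees E2F factors to switch on genes for replication. Later in the cycle the MuvB complex, with B-Myb and FoxM1, activates mitotic genes through a cell cycle homology region (CHR) in their promoters. Microglia of the adult brain renew slowly by local division, so few of them are in S phase or mitosis at a given time.

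The promoters of 4 of the genes are shown with the motifs found in them, 3 of mitotic genes and 1 of a replication gene. Mki67 and Top2a were the mitotic genes with the highest FPKM in laser-captured library 1, Ccnb2 is a mitotic cyclin, and Mcm6 is a helicase subunit. Each stretch runs from 170 bases before to 30 bases after the RefSeq start on build GRCm38.p6, 5′ to 3′ on the gene's strand. Capitals mark CCAAT boxes, CHR elements and E2F sites on either strand. A CHR element was TTTGAA or, as an alternative form of the same element, TTTAAA. An E2F site was TTTGGCGC, TTTCCCGC, TTTGCCGC or TTTCGCGC.
Mki67 (chr7:135716350-135716549, minus strand): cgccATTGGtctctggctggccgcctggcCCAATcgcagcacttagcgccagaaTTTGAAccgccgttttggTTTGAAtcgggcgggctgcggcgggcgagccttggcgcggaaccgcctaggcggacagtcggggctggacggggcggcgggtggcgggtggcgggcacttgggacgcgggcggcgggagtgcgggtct
Top2a (chr11:99024160-99024359, minus strand): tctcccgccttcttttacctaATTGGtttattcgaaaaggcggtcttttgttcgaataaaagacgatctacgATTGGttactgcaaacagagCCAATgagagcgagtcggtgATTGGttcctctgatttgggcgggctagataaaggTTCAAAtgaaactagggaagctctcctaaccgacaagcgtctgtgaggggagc
Ccnb2 (chr9:70421525-70421724, minus strand): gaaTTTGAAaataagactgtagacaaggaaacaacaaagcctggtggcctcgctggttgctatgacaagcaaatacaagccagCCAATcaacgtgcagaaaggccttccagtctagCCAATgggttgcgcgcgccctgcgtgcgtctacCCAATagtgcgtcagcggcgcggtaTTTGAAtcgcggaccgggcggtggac
Mcm6 (chr1:128359676-128359875, minus strand): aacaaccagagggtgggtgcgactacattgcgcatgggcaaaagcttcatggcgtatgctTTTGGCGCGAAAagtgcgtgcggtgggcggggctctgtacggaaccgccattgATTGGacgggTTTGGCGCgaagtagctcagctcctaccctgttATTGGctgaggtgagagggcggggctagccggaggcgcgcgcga
Counted from the start as base 1, with -1 before it, Mki67 held CHR elements at -116 and -98, and Top2a held one at -23 on the opposite strand. Ccnb2 held CHR elements at -167 and 5 with CCAAT boxes at -87, -54 and -21 between them. Mcm6 held E2F sites at -110, -106 and -47, of which the 2 upstream ones overlap, and no CHR element.

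Of the 35 genes, 28 matched RefSeq promoters, giving 30 windows of 300 bases (250 before to 50 after the start). A CHR element lay in 17 of the 30 windows, against 27.6% of 32851 windows of all genes. A CCAAT box lay in 24 of 30, against 37.4%, and an E2F site in 7 of 30, against 2.26%. CHR elements lay in 5 of 5 windows of mitotic cyclins and kinases, in 5 of 5 of chromosome and spindle genes and in 3 of 8 of replication licensing and helicase genes. CCAAT boxes lay in 5, 4 and 7 of the same windows and E2F sites in 1, 0 and 5, and the difference between roles was not tested. These matches describe letters and not occupied sites.

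As a check of the labels, the 12 microglia markers were above 0 in every library. Their summed FPKM was 1300, 2900, 2850 and 1620 in laser-captured libraries 1 to 4 and 4420 to 6890 in the sorted libraries. Markers of other brain cells were also present in the captured libraries. The 10 oligodendrocyte markers summed to between 2600 and 7470 FPKM there and to between 21.8 and 33.5 in the sorted libraries, and the 12 oligodendrocyte precursor markers to between 194 and 489 against 0.823 to 1.49. The neuron list summed to between 714 and 2010 against 1.84 to 9.90, the astrocyte list to between 447 and 866 against 21.1 to 33.0, and the endothelium list to between 117 and 406 against 63.3 to 75.0. In bulk RNA, fewer cells of a type and less RNA per cell cannot be told apart.

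Laser-captured library 1 stood apart from the other 9 libraries in nearly the whole set. It was the highest of the 10 libraries for 29 of the 35 genes, a position it held for 16.2% of 23786 genes above 0 in any library. The median FPKM over the 35 genes was 21.9, 0.815, 4.35 and 0.359 in laser-captured libraries 1 to 4, and it was 2.06, 1.38 and 1.84 in the sorted GFP and 1.44, 1.04 and 1.14 in the sorted wild-type libraries. As a share of all summed FPKM, the set took 0.312%, 0.0269%, 0.120% and 0.0379% of the captured libraries and 0.0504% to 0.0580% of the sorted ones. Laser-captured libraries 1 and 3 thus lay above the sorted range and libraries 2 and 4 below it.

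Counted gene by gene, library 1 exceeded all 6 sorted libraries for 32 of the 35 genes (30.2% of all genes did so), and 15 of them were over 10 times the highest sorted library (12.3% of all genes). Library 3 exceeded all sorted libraries for 25 genes (29.3% of all genes), library 2 for 7 (30.1%) and library 4 for 9 (32.8%). Library 2 lay below all sorted libraries for 19 genes (39.6% of all genes) and library 4 for 23 (39.0%), whereas libraries 1 and 3 did so for 2 (40.8%) and 8 (40.7%). Of the set, 7 genes were listed at 0 in library 4. A value of 0 in these tables can be a failed estimate.

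**Figure D1:**
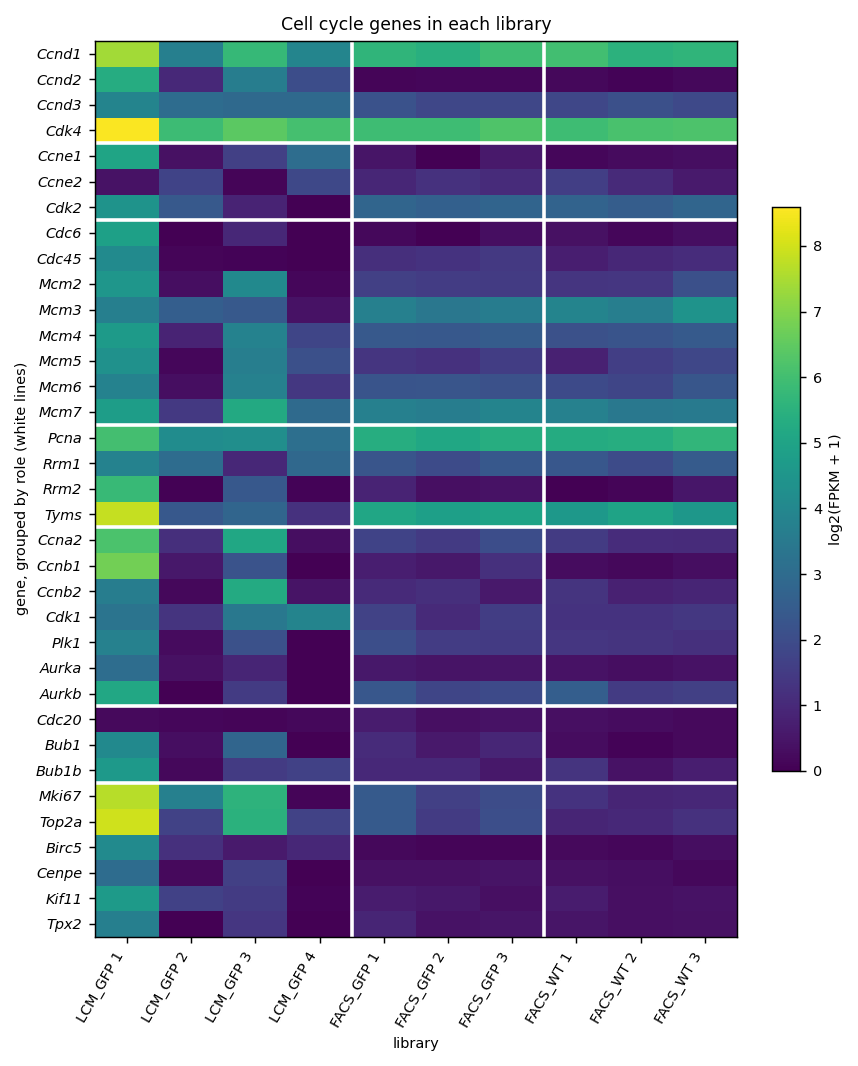
Heat map of log2(FPKM + 1) for the 35 cell cycle genes (vertical, grouped by role) in the 10 libraries (horizontal), with brighter colours for higher levels. Laser-captured library 1 is the brightest column, with a median of 21.9 FPKM, and library 4 the darkest, with a median of 0.359 FPKM.

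Laser-captured libraries 1 and 3 also carried transcripts of another kind at high level. A list of 14 embryonic globin and oncofetal genes summed to 4590 FPKM in laser-captured library 1 and to 1880 in library 3, against 82.6 in library 2, 65.3 in library 4 and 10.6 to 14.9 in the sorted libraries. Hba-x, an embryonic alpha-like globin, stood at 1853, 2.16, 660 and 0.225 FPKM in laser-captured libraries 1 to 4 and was listed at 0 in all 6 sorted libraries. Hbb-y, an embryonic beta-like globin, stood at 902, 0.102, 439 and 0.0669, and H19, an imprinted RNA of fetal tissue, at 299, 0.117, 49.5 and 0.121. Of the list, Afp was listed at 0 in all 4 captured libraries.

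Lists of other cells that can divide were compared in the same libraries. The oligodendrocyte precursor list summed to 208, 489, 194 and 312 FPKM in laser-captured libraries 1 to 4, so that it was highest in library 2 and did not follow the cell cycle genes. The neural progenitor and neuroblast list summed to 54.9, 36.4, 33.4 and 30.9 FPKM, highest in library 1, with 3, 7, 3 and 5 of its 15 genes listed at 0. Its sums in the sorted libraries were 13.0 to 24.3 FPKM. The erythroid list summed to 269, 38.1, 94.6 and 0.0162 FPKM, higher in libraries 1 and 3 than in libraries 2 and 4. Its sums in the sorted libraries were 3.25 to 6.88 FPKM, so library 2 also lay above them and library 4 below. Of its 10 genes, 2, 4, 2 and 9 were listed at 0 in the captured libraries. The blood leukocyte list summed to 0.101, 31.3, 6.01 and 0.598 FPKM, against 36.2 to 74.9 in the sorted libraries. Of its 12 genes, 11, 10, 9 and 10 were listed at 0 in the captured libraries and 4 to 9 in the sorted ones. Only 1 gene of that list reached 10 FPKM in each sorted library. The part of any of these lists in the cell cycle levels was not tested.

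**Figure D2:**
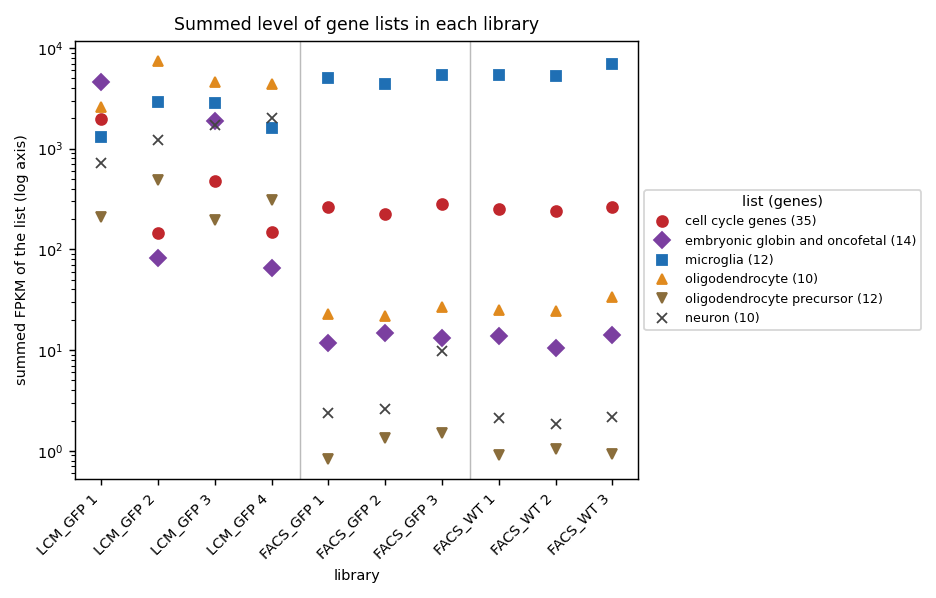
Summed FPKM (log axis) of 6 gene lists in each of the 10 libraries, with the number of genes of each list in the key. The cell cycle genes and the embryonic globin and oncofetal list are both highest in laser-captured libraries 1 and 3, while the oligodendrocyte precursor list peaks in library 2.

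The comparison of laser-captured with sorted GFP microglia sets the 2 isolation methods against each other for GFP expressing cells. It called none of the 35 genes higher or lower (limma on log2(FPKM + 1), Benjamini-Hochberg adjusted p under 0.05), although 32.1% of 13403 tested genes were called, 12.5% higher and 19.6% lower. Of the 35 genes, 28 passed the filter of 1 FPKM in at least 3 of the compared libraries. An unadjusted p under 0.05 was reached by 2 of them, Ccnd2 and Ccnd3, against 44.9% of all genes. The median log2 change of the 28 was 0.71, and that of all tested genes -0.60.

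The comparison of laser-captured with sorted wild-type microglia uses the same 4 captured libraries, so the 2 comparisons are not independent. It also sets GFP expressing against wild-type cells, and 3 female and 1 male libraries against 3 male ones. Isolation, GFP and labelled sex cannot be told apart in it. Here 1 of 25 tested genes of the set, Ccnd2, was called higher and 0 lower, against 12.3% of 13415 genes called higher and 19.1% lower. An unadjusted p under 0.05 was reached by 4 (Ccnd2, Ccnd3, Ccne1 and Cdk1), against 44.3% of all genes. The median log2 change of the 25 was 0.64, and that of all tested genes -0.59. In both comparisons Ccnd2, Ccne1 and Kif11 passed the filter through the captured libraries alone, with no sorted library of the comparison at 1 FPKM, so their tests are no support for a difference of the set. With median ratio scaling the median over all genes moved to -0.12 against sorted GFP cells and to -0.11 against wild-type cells, and the share of calls that were higher moved from 39.0% and 39.2% to 59.7% in both. The call of Ccnd2 against wild-type cells was lost with that scaling. Ccnd3 was then called in both comparisons, at log2 changes of 1.67 (limma adjusted p = 0.0357) and 1.66 (adjusted p = 0.0381).

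Among the G1 genes, Ccnd2 and Ccnd3, both D-type cyclins, were higher in every captured than in every sorted library. Ccnd2 (ENSMUSG00000000184, mm9 chr6:127075796-127101066) stood at 39.5, 1.01, 11.6 and 3.12 FPKM in laser-captured libraries 1 to 4. It stood at 0.0843, 0.106 and 0.116 in sorted GFP and at 0.124, 0.0628 and 0.140 in sorted wild-type libraries. All 4 captured libraries lay above all 6 sorted ones, and the gene entered the tests only because the captured libraries reached 1 FPKM. The log2 change was 2.86 ± 0.94 (SE) against sorted wild-type cells (limma adjusted p = 0.0499) and 2.87 ± 0.95 against sorted GFP cells (adjusted p = 0.0504), so the same difference stood on either side of the threshold. Over the alternative settings the adjusted p ran from 0.00645 to 0.141 against wild-type cells. Without library 1 the change was 2.08 (adjusted p = 0.0368) against wild-type and 2.09 (adjusted p = 0.0379) against sorted GFP cells.

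Ccnd3, the D-type cyclin of many blood lineage cells, stood at 13.6, 7.24, 6.64 and 6.63 FPKM in the captured, 3.46, 2.58 and 2.58 in the sorted GFP and 2.58, 3.32 and 2.71 in the sorted wild-type libraries. Again no captured library overlapped a sorted one, and the log2 change was 1.25 ± 0.45 (SE) against sorted GFP (limma adjusted p = 0.0634) and 1.25 ± 0.46 against wild-type cells (adjusted p = 0.0676). Without library 1 it was 1.02 in both comparisons and passed the threshold (adjusted p = 0.0424 and 0.0480). Ccnd1 was the most abundant D-type cyclin of the sorted cells, at 42.0 to 62.3 FPKM. In the captured libraries it stood at 169, 12.03, 53.8 and 14.0 FPKM, above the sorted range in library 1 and below it in libraries 2 and 4. Cdk4, the kinase partner of these cyclins, had the highest mean of the set, with 59.4 to 74.5 FPKM in the sorted libraries and 370, 58.2, 86.0 and 65.1 in the captured ones.

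Of the genes that act at entry into S phase, Ccne1 (cyclin E1) stood at 31.4, 0.310, 2.09 and 7.34 FPKM in the captured libraries and at no more than 0.488 in the sorted ones, with sorted GFP library 2 listed at 0. The groups overlapped against sorted GFP cells and did not against wild-type cells, where the log2 change was 2.30 ± 0.97 (SE, limma adjusted p = 0.104). Ccne2 (cyclin E2) went the other way among the captured libraries: it was lowest in libraries 1 and 3 (0.332 and 0.0832 FPKM) and highest in libraries 2 and 4 (2.28 and 2.62), with 0.545 to 2.01 in the sorted cells. Cdk2, the kinase of both, stood at 20.3, 4.30 and 0.818 FPKM in libraries 1 to 3, was listed at 0 in library 4 and stood at 4.83 to 5.93 in the sorted cells.

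None of the replication genes was called with all libraries, and their levels differed widely among the captured libraries. Mcm2 and Mcm6, subunits of the replicative helicase, were high in the same pair of captured libraries: Mcm2 stood at 21.9, 0.238, 15.8 and 0.107 FPKM and Mcm6 at 13.1, 0.248, 12.9 and 1.63. In the sorted cells Mcm2 stood at 1.53 to 3.27 FPKM and Mcm6 at 2.45 to 3.91. Mcm4, Mcm5 and Mcm7 were high in that pair as well, with 24.6, 19.2 and 26.4 FPKM in library 1 and 12.9, 11.7 and 36.1 in library 3, while Mcm5 also stood at 3.28 in library 4, above the sorted maximum of 2.56. Mcm3 did not follow it: its 12.02, 4.89, 4.35 and 0.330 FPKM stood within or below the 9.67 to 20.2 of the sorted cells.

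Library 1 alone held high levels of the genes that load and start the helicase. Cdc6, a loading factor, stood at 28.8, 0.0198, 0.964 and 0.0128 FPKM, against 0.0229 to 0.300 in the sorted cells. Cdc45, a part of the active helicase, stood at 16.4 FPKM in library 1, at 0.0816 and 0.0633 in libraries 2 and 3, and was listed at 0 in library 4. The sorted cells held 0.664 to 1.66 FPKM of Cdc45, so 3 captured libraries lay below them all. Without library 1 its log2 change against sorted GFP cells was -1.21 ± 0.15 (SE, limma adjusted p = 0.00120). In that setting it passed the filter through the sorted GFP libraries alone.

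Pcna and Tyms were the replication genes that sorted microglia held at the highest levels. Tyms, the thymidylate synthase, stood at 22.2 to 33.2 FPKM in the sorted libraries and at 226, 4.18, 5.96 and 1.37 in the captured ones. Its result turned on library 1: the log2 change against sorted GFP cells was -1.41 ± 1.40 (SE, limma adjusted p = 0.463) with all libraries and -2.84 ± 0.47 (adjusted p = 0.00434) without it. Pcna, the sliding clamp of the replication fork, stood at 64.7, 17.4, 17.9 and 7.83 FPKM in the captured and 33.6 to 49.5 in the sorted libraries. Its change was -0.87 ± 0.65 (adjusted p = 0.327) with all libraries and -1.42 ± 0.39 (adjusted p = 0.0274) without library 1. Of the ribonucleotide reductase subunits, Rrm1 stood at 0.941 to 13.0 FPKM in the captured and 2.92 to 4.54 in the sorted libraries. Rrm2, the subunit whose level follows S phase, stood at 54.6, 0.0262, 4.17 and 0.0613 FPKM against 0.0184 to 0.807.

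Mitotic genes spread widely among the captured libraries. Mki67, which encodes the Ki-67 protein of dividing nuclei (ENSMUSG00000031004, mm9 chr7:142881470-142908062), stood at 202, 12.4, 46.6 and 0.0785 FPKM in laser-captured libraries 1 to 4. Its rank by FPKM was 336 in library 1 and 16381 in library 4, and it lay between 8928 and 12095 in the sorted libraries. Top2a, the topoisomerase that untangles chromosomes (ENSMUSG00000020914, mm9 chr11:98854256-98885503), stood at 251, 2.23, 43.9 and 2.22 FPKM. The log2 change against sorted GFP cells was 2.25 ± 1.55 (SE) for Mki67 (limma adjusted p = 0.291) and 2.22 ± 1.50 for Top2a (adjusted p = 0.283), so neither gene was called.

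Of the mitotic cyclins, Ccna2 stood at 70.3, 1.21, 34.0 and 0.242 FPKM in the captured libraries and at 1.07 to 3.07 in the sorted ones. Ccnb1 stood at 108, 0.483 and 3.65 FPKM in libraries 1 to 3 and was listed at 0 in library 4, against 0.129 to 1.29 in the sorted ones. Ccnb2, with Mcm7 and Cdk1, was one of 3 genes higher in library 3 (37.1 FPKM for Ccnb2) than in library 1 (11.5). Cdk1, the kinase of these cyclins, had another order: 8.83, 1.43, 9.79 and 13.8 FPKM, so that library 4, which listed Ccnb1, Plk1 and Aurkb at 0, held the most Cdk1. Its log2 change was 1.54 ± 0.67 (SE) against sorted GFP (limma adjusted p = 0.113) and 1.67 ± 0.66 against wild-type cells (adjusted p = 0.0864).

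The other mitotic kinases and the checkpoint genes were highest in library 1, Cdc20 apart. Aurkb, of the chromosomal passenger complex, stood at 34.8 FPKM there and at 1.82 in library 3, was listed at 0 in libraries 2 and 4, and stood at 1.79 to 4.92 in the sorted cells. Plk1 and Aurka stood at 12.7 and 7.41 FPKM in library 1 and at no more than 3.23 and 0.462 in the sorted cells. Bub1 and Bub1b, of the spindle checkpoint, stood at 15.8 and 23.9 FPKM in library 1, against sorted maxima of 1.10 and 1.44. Cdc20, the activator of the anaphase promoting complex, stood at 0.0832 to 0.154 FPKM in the captured libraries, all 4 below the 0.158 to 0.568 of the sorted ones.

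All 6 genes of chromosome structure and the spindle were over 10 times the highest sorted library in library 1. Besides Mki67 and Top2a these were Birc5, Cenpe, Kif11 and Tpx2, at 16.4, 7.21, 24.5 and 12.04 FPKM. Birc5 (survivin) was the only one of the 6 with all captured libraries above all sorted ones, at 16.4, 1.31, 0.533 and 0.955 FPKM against 0.0776 to 0.251, although it missed the filter for testing in both comparisons. Over the 35 genes the captured libraries all lay above the sorted GFP libraries for 3 (Ccnd2, Ccnd3 and Birc5) and all below for 1 (Cdc20), against 13.1% and 23.4% of 23201 genes. Against wild-type libraries these counts were 5 (with Ccne1 and Top2a) and 1, against 12.9% and 22.9% of 23076 genes.

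**Figure D3:**
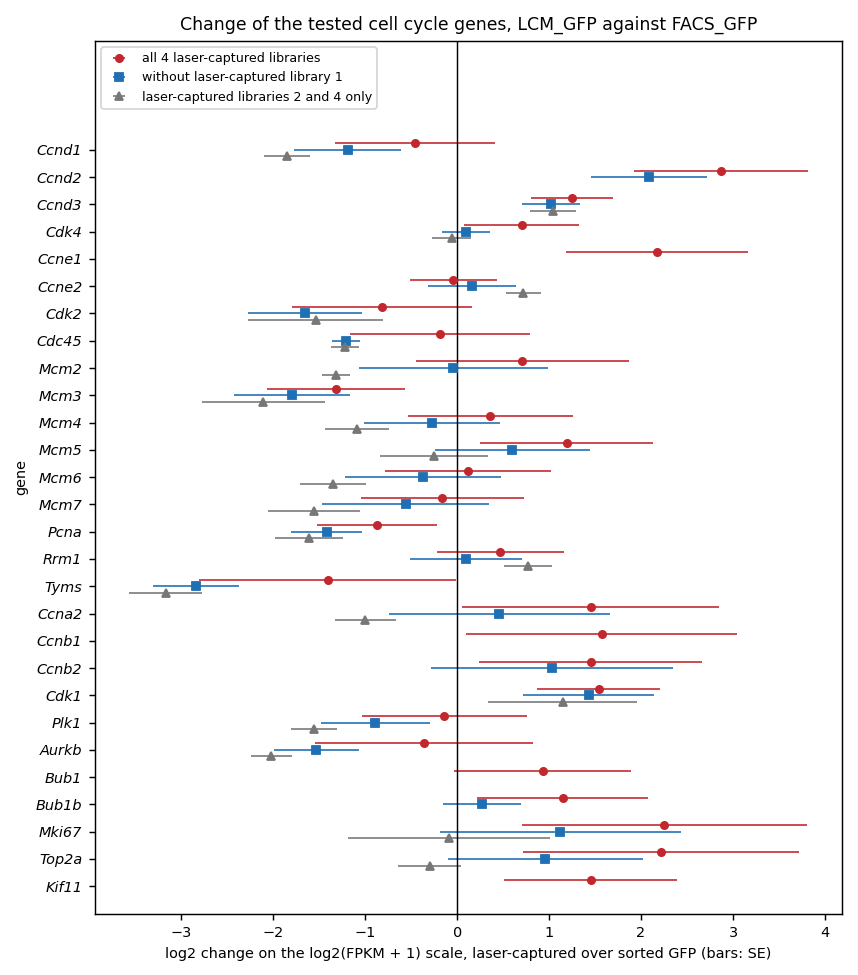
Log2 change on the log2(FPKM + 1) scale of each tested cell cycle gene, laser-captured over sorted GFP cells, with SE bars, for all 4 captured libraries (circles), without library 1 (squares) and with libraries 2 and 4 only (triangles). A gene has no marker where it did not pass the filter in that setting. The median change over the genes tested in each setting is 0.71, 0.03 and -1.22, and the genes tested differ between the settings.

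The changes of the set moved when captured libraries were left out, but the medians are not over the same genes. Ccne1, Kif11, Bub1 and Ccnb1 had log2 changes of 2.17, 1.45, 0.93 and 1.57 against sorted GFP cells with all libraries. These genes did not pass the filter without library 1, and with libraries 2 and 4 only Ccnd2, Ccnb2 and Bub1b were lost as well. The part of this loss in the move of the median was not tested. Without library 1, the median log2 change against sorted GFP cells was 0.03 over 24 tested genes, with 2 called higher (Ccnd2 and Ccnd3) and 4 lower (Cdc45, Aurkb, Tyms and Pcna), against 15.6% and 26.1% of 13045 genes, so both shares of the set lay below those of all genes. The median of all genes was then -0.62. Against wild-type cells 2 of 22 were called higher and 3 lower without library 1, against 15.3% and 25.0% of all genes. Libraries 2 and 4 were taken alone after their levels were known, and their set medians lay below the sorted range, so lower changes follow from that choice and are given as a description. With those 2 libraries the median was -1.22 over 21 genes (-0.79 over all genes) against sorted GFP cells and -1.15 over 19 genes (-0.76 over all genes) against wild-type cells. Ccnd3 had a log2 change of 1.04 in both, while Tyms had -3.17 and -2.90 and Ccnd1 -1.85 and -1.90.

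The comparison of sorted GFP with sorted wild-type microglia holds the isolation method constant. None of 22 tested genes of the set was called by limma, against 0.11% of 11814 genes, which is 13 genes (0.0339% higher and 0.0762% lower). An unadjusted p under 0.05 was reached by 3 of the 22, all higher in GFP cells (Mki67, Top2a and Ccna2), against 13.1% of all genes. No alternative setting called a gene of the set in this comparison. Both groups differ also in the labelled sex, and the wild-type group has no female library.

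For several mitotic genes the sorted groups did not overlap. Mki67 stood at 4.45, 2.06 and 2.99 FPKM in the 3 sorted GFP libraries (3.17 ± 1.21, SD, n = 3) and at 1.38, 0.835 and 0.939 in the 3 sorted wild-type libraries (1.05 ± 0.287). Top2a stood at 4.36, 1.79 and 3.20 FPKM (3.12 ± 1.29) and at 0.872, 0.998 and 1.36 (1.08 ± 0.255). For neither gene did the groups overlap. The log2 change was 0.99 ± 0.22 (SE) for Mki67 (limma adjusted p = 0.244) and 0.94 ± 0.24 for Top2a (adjusted p = 0.252). Over the alternative settings the adjusted p of Mki67 ran from 0.0922 to 1.00. The GFP library labelled male, library 2, was the lowest of its group for both genes.

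Bub1 stood at 1.10, 0.496 and 0.909 FPKM in sorted GFP and at 0.205, 0.0501 and 0.163 in wild-type libraries, too low to pass the filter. Ccnb1 stood at 0.657, 0.456 and 1.29 FPKM against 0.211, 0.129 and 0.252, also without overlap and also untested. Plk1 stood at 3.23, 1.85 and 1.73 FPKM against 1.56, 1.47 and 1.30, and Cdc45 at 1.24, 1.38 and 1.66 against 0.664, 0.958 and 1.14. Over the 35 genes, all 3 GFP libraries lay above all 3 wild-type libraries for 9 (also Aurka, Cdc20 and Cenpe) and below for 0, against 8.07% and 7.37% of 21577 genes. Among the genes that passed the filter the counts were 4 and 0 of 22, against 11.5% and 9.29% of all tested genes.

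All genes of G1, S phase entry and replication except Cdc45 overlapped between the sorted groups. Cdk4 stood at 60.1, 59.4 and 74.5 FPKM in GFP and 60.5, 69.4 and 72.3 in wild-type cells (log2 change -0.06 ± 0.13, SE, limma adjusted p = 0.846). Ccnd1 had a log2 change of -0.05 ± 0.17 (adjusted p = 0.909), and Pcna one of -0.16 ± 0.14 (adjusted p = 0.617). Mcm3 was the helicase subunit with the largest difference, at 12.6, 9.67 and 11.1 FPKM against 13.8, 11.7 and 20.2 (-0.40 ± 0.20, adjusted p = 0.424).

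**Figure D4:**
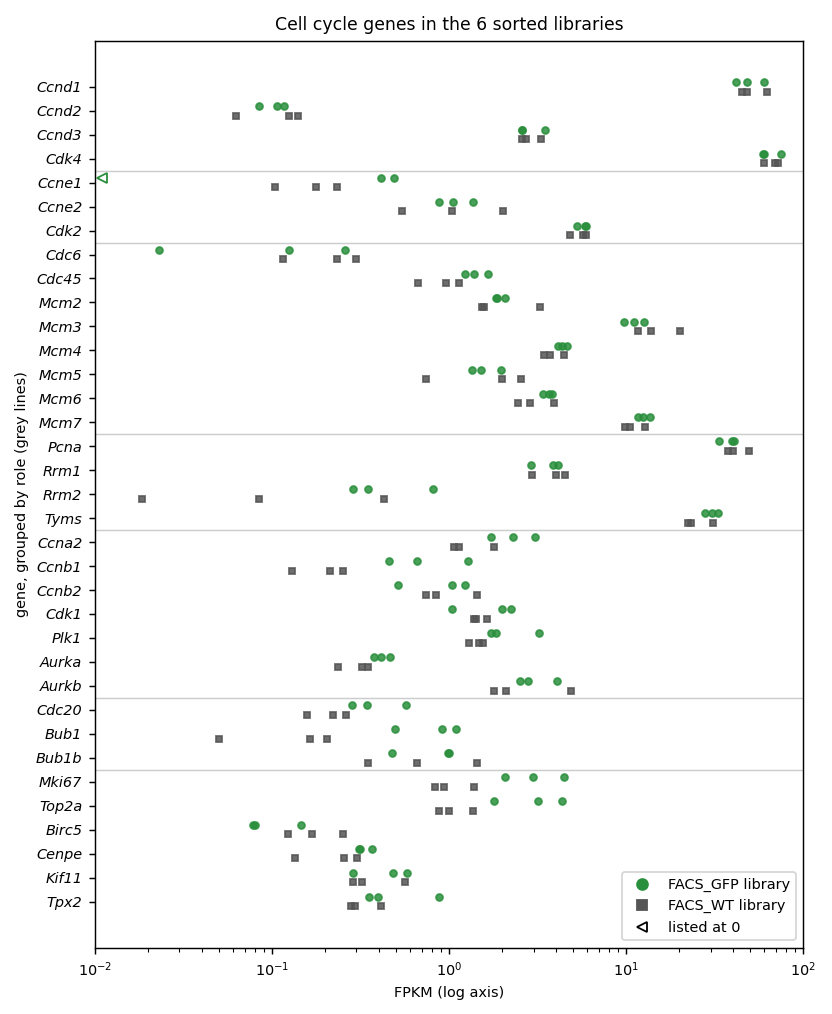
FPKM (log axis) of the 35 cell cycle genes, grouped by role, in the 3 sorted GFP libraries (green circles) and the 3 sorted wild-type libraries (grey squares), with an open triangle at the left edge for the 1 value listed at 0. The green and grey points of Mki67, Top2a, Bub1 and Ccnb1 do not overlap, while those of Cdk4, Ccnd1 and Pcna do.

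The authors' deposited table of group comparisons gave another count. It marked Ccnd2 (log2 change 6.56, q = 3.17e-07) and Mki67 (4.04, q = 1.65e-08) as higher in laser-captured than in sorted GFP cells, with 5.13% of its tested genes marked. The authors' deposited table marked the same 2 genes against wild-type cells (5.01% of genes marked). Between the sorted groups the authors' deposited table marked Mki67 alone of the set (log2 change 1.64, q = 5.11e-09), with 0.321% of genes marked. Top2a had a log2 change of 1.59 and q = 0.430 in the authors' deposited table.

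Beyond the 35 genes, 100 other genes of replication, mitosis and cell cycle control were examined. Laser-captured library 1 exceeded all sorted libraries for 46 of 48 other mitotic factors and for 18 of 24 other replication factors, against 30.2% of all genes. It did so for 10 of 21 E2F, pocket protein and MuvB genes and for 1 of 7 inhibitors of cyclin-dependent kinases. Library 4 lay below all sorted libraries for 33 of the 48, 15 of the 24 and 12 of the 21, against 39.0% of all genes. The mitotic factors of highest mean FPKM were Ube2c, a ubiquitin enzyme of the anaphase promoting complex, with 128, 1.14, 54.7 and 1.93 FPKM, Cdca3 with 148, 0.401, 30.7 and 0.0166, Smc2 of condensin with 46.8, 0.620, 76.1 and 0.944, and Anln.

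Anln, which encodes anillin of the cleavage furrow and is also expressed by myelinating oligodendrocytes, did not share that pattern. It stood at 28.5, 29.5, 57.1 and 51.1 FPKM in the captured libraries and at 0.427 to 0.873 in the sorted ones. Its log2 change was 4.61 ± 0.45 (SE) against sorted GFP (limma adjusted p = 0.000369) and 4.69 ± 0.46 against wild-type cells (adjusted p = 0.000366). It passed the filter through the captured libraries alone. Of the other genes tested (65 against sorted GFP and 60 against wild-type cells), Anln alone was called higher in each comparison, against 12.5% and 12.3% of all genes. The oligodendrocyte list was likewise high in all 4 captured libraries, and its part in the Anln level was not tested.

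Of the 65 other genes tested against sorted GFP cells, 5 were called lower, a smaller share than the 19.6% of all genes: Rb1 (log2 change -1.55), Rbl1 (-2.38), Cdk6 (-1.94), Fen1 (-1.21) and Gins3 (-1.29). Against wild-type cells 5 of 60 were called lower, also a smaller share than the 19.1% of all genes: Rbl1 (-2.08), Cdk6 (-1.88), Fen1 (-1.44), Gins4 (-2.05) and Cdkn2c (-1.43). Rb1 and Rbl1 are pocket proteins that restrain E2F factors, and Cdk6 is the other kinase partner of D-type cyclins. Rb1 stood at 27.3, 61.4, 36.4 and 15.3 FPKM in the captured libraries and at 75.3 to 103 in the sorted ones. Median ratio scaling left 0 of these calls against sorted GFP cells and 1 against wild-type cells. That scaling called 9.5% and 9.4% of all genes lower. Leaving out any 1 sorted library of the group compared left 0 called lower in either comparison, while the genes called lower among all genes fell from 2624 to between 304 and 329 against sorted GFP cells and from 2558 to between 326 and 384 against wild-type cells. Without captured library 3 the counts were 2 and 1, against 22.7% and 21.8% of all genes. Without captured libraries 1, 2 and 4 in turn the counts were 7, 8 and 9 against sorted GFP cells and 9, 6 and 5 against wild-type cells. The shares of all genes called lower were then 26.1%, 23.5% and 21.2% against sorted GFP cells. Against wild-type cells they were 25.0%, 22.9% and 19.9%.

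Of the replication factors of highest mean FPKM, Gins1, a subunit of the helicase complex, stood at 119 FPKM in library 1 and at no more than 5.90 in any other library. Gins4 of the same complex stood at 5.27, 3.16, 1.73 and 15.0 FPKM in the captured and 18.7 to 27.3 in the sorted libraries. Lig1, the replicative DNA ligase, stood at 57.0, 13.0, 3.74 and 5.35 FPKM against 7.40 to 13.3, and Rfc3, of the clamp loader, at 54.2, 8.21, 2.55 and 12.9 against 7.41 to 11.6. Thus Gins4 did not share the peak of library 1 that the other 3 had.

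The inhibitors restrain cyclin-dependent kinases. In libraries 1 to 4, 5, 4, 4 and 5 of the 7 lay below all sorted libraries, against 40.8%, 39.6%, 40.7% and 39.0% of all genes, and 4 of the 7 were listed at 0 in library 1. Cdkn1a (p21) stood at 31.6, 32.7, 2.54 and 13.4 FPKM in the captured and 40.9 to 55.3 in the sorted libraries. Cdkn1b (p27) stood at 0.737, 5.22, 2.11 and 1.70 FPKM against 4.88 to 6.09, Cdkn2c (p18) at 0, 1.46, 0.324 and 1.59 against 1.97 to 5.55, and Cdkn1c (p57) at 1.71, 2.93, 1.07 and 0.238 against 0.304 to 0.651. The pocket protein and E2F genes of highest mean FPKM besides Rb1 were Rbl2, E2f4 and Lin37, and none of the 3 was called in any comparison. In the comparison of the sorted groups, 0 of 54 tested genes of these lists were called, against 0.11% of all tested genes. An unadjusted p under 0.05 (limma) was reached by 5 of the 54, against 13.1% of all tested genes. All GFP libraries lay above all wild-type libraries for 18 of the 100 and below for 2, against the 8.07% and 7.37% of all genes given above. Among those that passed the filter the counts were 5 and 2 of 54, against 11.5% and 9.29% of all tested genes.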

How the data were processed

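The authors' tools were Cufflinks 2.0.2, Bowtie2 2.0.0, TopHat2 2.0.4 and CASAVA 1.8.2 on build mm9, per the submitters' processing notes. The annotation release and how multiply mapping reads were counted are not given in the sources used here. The deposited expression table holds FPKM per gene and library, per the file headers. A second deposited table holds, per the file headers, a log2 change, p-value and q-value for each pair of groups. It was used only where named.

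The 35 genes and all lists were chosen with earlier results of these data known. Roles were assigned from general knowledge. Named are all 35 genes, the 4 of highest mean FPKM in each other cell cycle list, other cell cycle genes called where 5 or fewer were called in a direction, and single genes of the marker lists. Of 102 other cell cycle genes listed, 100 were matched. A gene entered a test when 3 or more libraries of its comparison reached 1 FPKM. Its log2(FPKM + 1) was fitted by limma 3.58.1 (trend, robust, statmod 1.5.0, R 4.3.3), two-sided, with only the 2 groups in the fit and Benjamini-Hochberg adjustment over all tested genes. Such a change understates that of low genes. Tables and figures used Python 3.11.15, pandas 2.3.3, numpy 2.4.6 and matplotlib 3.10.9. On simulated data with 100 genes changed by 1 on the log2 scale, the test recovered 0 in each laser capture comparison and 69 between the sorted groups. Of 100 changed by 3 it recovered 40 against sorted GFP, 38 against wild-type and 100 between the sorted groups. The changed genes were drawn only from those with a mean log2(FPKM + 1) above 2 in the reference group. That group was the sorted one, or the wild-type one between the sorted groups. The median of the set on that scale was 1.03 to 1.61 in the sorted libraries, so these rates do not cover its lower genes.

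No read counts are given. Steps between low values imply 3.51e+07 to 4.41e+07 fragments in the captured and 5.29e+07 to 6.93e+07 in the sorted libraries at an assumed fragment length of 200 bases, but only 63.2% to 72.6% of such values fell within 0.2 of whole numbers of steps, so whole reads were not recovered and no counting interval was computed. Alternatives were pseudocounts of 0.1 and 5, no filter, a filter of 5 FPKM, median ratio scaling, quantile normalization, a replicate block, all 3 groups in 1 fit, a spread that differs between groups and leaving out each library. Using laser-captured libraries 2 and 4 only was chosen after seeing the data.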

Additional observations from a re-analysis of the deposited data

Results flagged for a closer look

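Within the 4 laser-captured libraries, library 1 lay far from the other 3 for 3 of the 35 genes. The measure was its gap to the nearest other library, divided by the range of the group on log2(FPKM + 1), with a critical value of 0.829 for 4 samples. Cdc45 stood at 16.4 FPKM in library 1, with a gap of 0.973 of the range. Ccnd3 stood at 13.6 FPKM (gap 0.881) and Birc5 at 16.4 FPKM (gap 0.831). Chance alone gives about 1 in 20 groups such a gap, and 35 were examined in the same 4 libraries.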

How the results depend on the processing

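No gene of the set was called between the sorted groups under any setting run. The counts of the set called higher against sorted GFP cells were 1 with a pseudocount of 0.1, with median ratio scaling and with a spread that differs between groups, and 3 with all 3 groups in 1 fit. In these settings 26 to 28 genes of the set were tested. Of all genes 13.8%, 14.1%, 15.5% and 16.3% were called higher, in that order. Against wild-type cells the counts of the set were 0 with a pseudocount of 5, with no filter, with the filter of 5 FPKM and with quantile normalization, 3 with all groups in 1 fit and 5 with differing spread. Of all genes 10.1%, 5.89%, 12.5% and 12.9% were called higher in the first 4 of these settings. The last 2 called 16.0% and 15.5% of all genes higher, with 25 genes of the set tested. Leaving out 1 library gave 0 to 4 called higher and 0 to 4 lower against sorted GFP, and 0 to 3 higher and 0 to 3 lower against wild-type cells. Those fits called 5.81% to 15.6% of all genes higher and 2.39% to 26.1% lower against sorted GFP cells. Against wild-type cells the ranges were 6.01% to 15.3% and 2.57% to 25.0%. With laser-captured libraries 2 and 4 only, the counts were 2 higher and 8 lower of 21 (901 and 4084 of 11547 genes in all), and 7 lower of 19 against wild-type cells (3798 of 11586). Of those called lower, Cdc45, Aurkb and Mcm2 passed the filter through the sorted GFP libraries alone, and Aurkb and Mcm2 through the wild-type libraries alone. The calls of these genes are therefore no support for a difference. Of the other cell cycle genes called higher against sorted GFP and wild-type cells, median ratio scaling gave 2 and 2, all groups in 1 fit 2 and 3, differing spread 3 against wild-type cells, and libraries 2 and 4 only 0 against wild-type cells. Median ratio scaling called 14.1% and 13.9% of all genes higher, and all groups in 1 fit 16.3% and 16.0%. Against wild-type cells differing spread called 15.5% higher and libraries 2 and 4 only 7.66%. The other cell cycle genes called lower were 2 and 1 with a pseudocount of 0.1, 2 and 3 with no filter, 3 and 3 with the filter of 5 FPKM, 0 and 1 with median ratio scaling, 2 and 2 with quantile normalization, 9 and 9 with all groups in 1 fit, and 17 and 18 with libraries 2 and 4 only. In these settings, in that order, 16.0%, 11.7%, 19.6%, 9.5%, 15.0%, 28.0% and 35.4% of all genes were called lower against sorted GFP cells. Against wild-type cells the shares were 15.5%, 11.4%, 19.1%, 9.4%, 14.9%, 27.8% and 32.8%. For these other genes, leaving out 1 library gave 1 to 4 higher and 0 to 9 lower in each comparison. The shares of all genes in those fits are given above.

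In the laser capture comparisons replicate numbers gave no sign of pairing the samples, as deviations of same-numbered samples correlated at -0.0401 to 0.00635. So few samples cannot show that a pairing is absent. Between the sorted groups they correlated at 0.141, 0.0102 and 0.214, and 4 of 6 samples were closest to their own number. Whether the numbers pair samples is therefore not settled in any comparison. With a replicate block, the set had 2 called higher against sorted GFP and 4 against wild-type cells, and the other cell cycle genes 3 and 3 higher and 3 lower against sorted GFP cells. Of all genes 10.7% and 10.6% were called higher with that block, and 14.4% lower against sorted GFP cells.

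With libraries 2 and 4 only, the change turned in sign for 9 of 21 genes of the set against sorted GFP and for 9 of 19 against wild-type cells. Among them were Ccna2 (-1.0 against sorted GFP and -0.48 against wild-type cells) and Mcm2 (-1.32 and -1.37). Against sorted GFP cells Mki67 (-0.09 ± 1.10, SE, limma adjusted p = 0.954) and Top2a (-0.30 ± 0.34, adjusted p = 0.506) also turned, by less than their SE from 0. Top2a stayed positive against wild-type cells (0.64 ± 0.21, limma adjusted p = 0.0585). Mcm2 passed the filter with libraries 2 and 4 only through the sorted libraries alone. Leaving out 1 library, Mcm2 ran from -0.04 to 1.42 and from -0.09 to 1.37, negative without library 1. The cause was not tested. The call of Ccnd2 against wild-type cells was lost without laser-captured library 3 or 4 or any 1 sorted library (adjusted p from 0.0540 to 0.141). Low levels kept 7 to 13 of the 35 genes out of the tests, as they did not reach 1 FPKM in 3 compared libraries. Limits set by depth were not tested.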
